A study of Mus musculus with 6 samples.

Results

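Clu, Msln, Spp1, Tubb6, Basp1, Phlda1 and S100a6 are markers of fetal-like, regenerating intestinal epithelium. These 7 genes were taken by name, each on the probe set with exactly 1 annotated symbol and the highest mean over the 6 arrays. Of the 7 genes, 6 were measured among the 19938 genes tested, each on its only such probe set. Spp1 was not analysed here. The values are log2 signals from Affymetrix arrays of total RNA from uncultured crypts of the mouse intestine, the pits of the gut lining in which its stem cells divide. The labels name a control group of 3 mice and a YAP Tg group of 3 samples, and each sample is 1 array. Each YAP Tg sample is taken here to be 1 mouse, which its title does not state. By the series title the transgenic mice expressed YAP-S127A, a mutant of the coactivator YAP that the Hippo kinases can no longer restrain at that serine. Expression depended on Villin-rtTA and on doxycycline. The design text has the mice receive the drug for 2 days and sets no group apart. The Villin promoter is active throughout the intestinal epithelium, but which crypt cells expressed the transgene was not measured here. The labels give neither strain nor age, and do not say which transgenes the control mice carried.

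YAP binds TEAD transcription factors and switches on genes of growth and repair when the Hippo kinases are inactive. After injury the adult crypt loses many of its stem cells, and surviving cells pass through a state in which genes typical of the fetal gut return. Clusterin, encoded by Clu, marks the rare cells that rebuild the crypt in that state, and YAP activity is needed for them to appear. Mesothelin (Msln) is a surface protein of the same state. S100a6, Phlda1, Basp1 and Tubb6 accompany it as a calcium sensor, a pleckstrin homology domain protein, a membrane-bound signalling protein and a beta-tubulin.

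Array medians over all probe sets lay between 6.19 and 6.32. The 12 epithelial markers, among them Epcam, Cdh1 and Vil1, all lay above the presumed array controls, probe sets whose median was 4.97 in control and 5.17 in YAP Tg crypts, and so were 5 crypt markers. Of the crypt markers, Lgr5, Olfm4 and Ascl2 fell and none rose. Leaving out control mouse 1 or 2 gave 2 such calls, control mouse 3 gave 1 and YAP Tg mouse 2 gave 5. As deposited, the values of 29.5% of genes were identical to all given digits on at least 2 arrays, a feature that touches 3 of the markers below and whose cause was not tested. With 3 arrays in a group, their number limits how precise each value is.

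In YAP Tg crypts S100a6, Clu and Phlda1 rose, by 8.67-fold, 6.73-fold and 5.14-fold. Msln had its highest value in a single transgenic mouse and did not pass the test, and neither did Basp1 or Tubb6. With limma and a threshold of 0.05 on the p adjusted over all genes, 3 of the 6 markers were higher and 0 lower, where 7.5% of all genes tested were called higher and 6.7% lower. The markers, and the gene lists below, were chosen with earlier results of these data known. Setting their counts beside the shares of all genes is therefore no independent test. At an unadjusted p below 0.05 the counts were also 3 and 0. For 4 of the 6 markers each transgenic array exceeded each control array, as it did for 16.5% of all genes. The median log2 change was 1.97 over the 6 markers and 0.03 over all genes. The 3 calls became 2 without control mouse 1 or 3, which lost S100a6. They became 4 without YAP Tg mouse 1, which added Msln, and 4 without YAP Tg mouse 2, which added Basp1. Over all genes the calls moved too. Without control mouse 1, 2 and 3, 674, 737 and 669 genes were higher, against 1495 with all 6 arrays. Without YAP Tg mouse 1, 2 and 3, 1141, 2802 and 1068 were higher. The genes lower were 369, 421 and 462, and then 890, 3889 and 811, against 1336. The list counts with an array left out come from the same fits. In bulk crypt RNA, fewer cells of a type and less RNA per cell cannot be told apart, nor can more cells and more RNA.

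**Figure D1:**
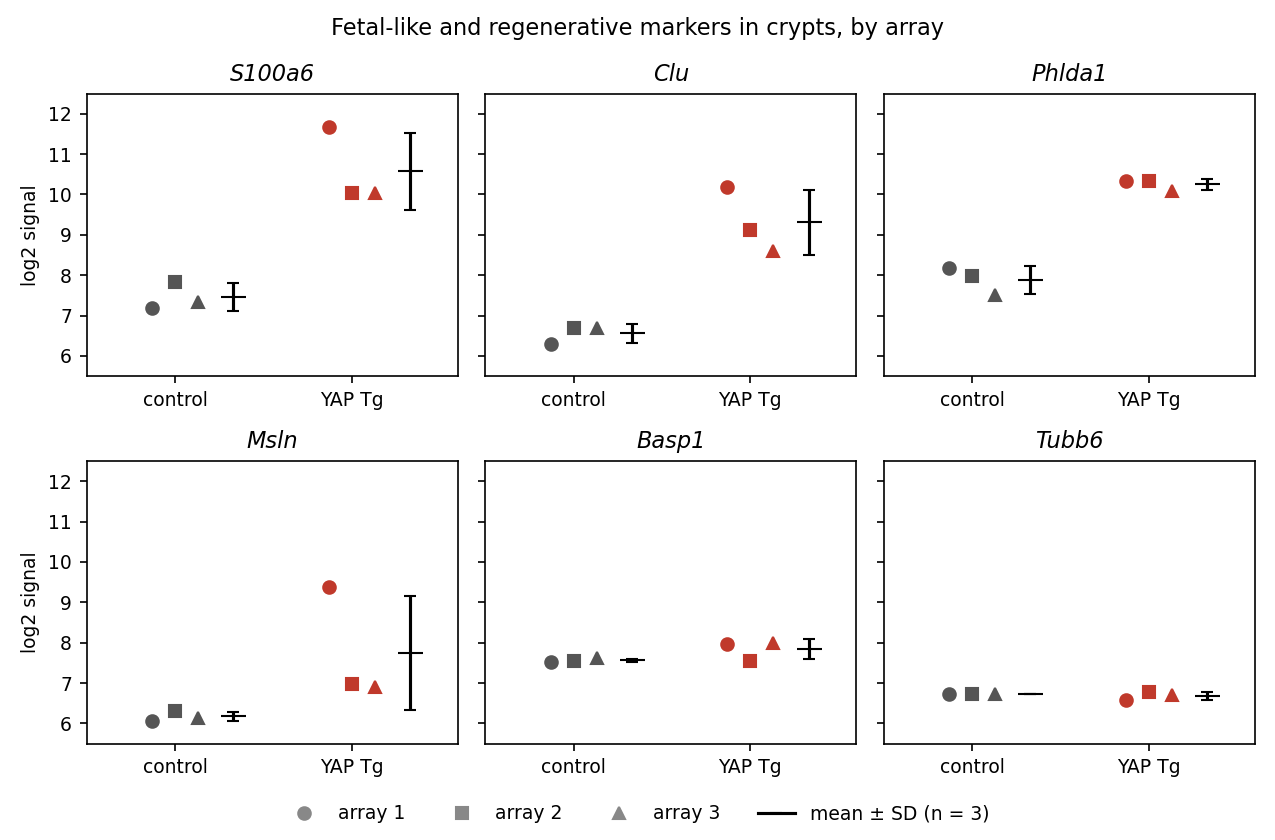
Log2 signal of the 6 measured markers (vertical axis, the same range in each panel) in control and YAP Tg crypts. Each symbol is 1 array, its shape gives the replicate number in the label, and the black bar and whiskers are mean ± SD (n = 3). For S100a6, Clu, Phlda1 and Msln every YAP Tg array lies above every control array, while the groups overlap for Basp1 and Tubb6.

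Clusterin is a secreted chaperone that binds misfolded proteins outside the cell. Its log2 signal was 6.29, 6.70 and 6.68 in control mice 1, 2 and 3, and 10.19, 9.13 and 8.61 in YAP Tg mice 1, 2 and 3. The lowest transgenic value exceeded the highest control value by 1.91, so the groups were far apart. The transgenic mice differed among themselves by up to 1.58 and the controls by up to 0.41. The means were 6.56 ± 0.23 (SD, n = 3) and 9.31 ± 0.80, 2.75 apart on the log2 scale (SE 0.39), with a 95% interval from 1.80 to 3.70 and an adjusted p of 0.00787 in limma. Only 0.221% of genes had a larger change. Clu remained called with any 1 array left out, with an adjusted p of 0.00537 to 0.0488.

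Mesothelin, a surface glycoprotein anchored by lipid, is scarce in most adult tissues other than the mesothelium. Its log2 signal was 6.07, 6.31 and 6.14 in control mice 1, 2 and 3, and 9.37, 6.98 and 6.90 in YAP Tg mice 1, 2 and 3. Every transgenic value lay above every control value, but YAP Tg mouse 1 stood 2.43 above the mean of the other two. On the linear scale the signal was 9.17 times the control level in that mouse, 1.74 times in mouse 2 and 1.66 times in mouse 3. Among all genes only 25 had a wider range over the 3 transgenic arrays than the 2.47 of Msln. The means were 6.17 ± 0.12 (SD, n = 3) and 7.75 ± 1.40, a log2 difference of 1.58 (SE 0.65, limma's adjusted p = 0.169). The 95% interval ran from -0.01 to 3.16. Without YAP Tg mouse 1 the difference was 0.76 and it passed (adjusted p = 0.0121). Mesothelial markers were measured beside it. Of 6, none was called by limma, and 0 had an unadjusted p below 0.05 (1 was called higher without YAP Tg mouse 2). Their summed linear signal was 333 to 361 in control mice and 403, 337 and 411 in YAP Tg mice 1, 2 and 3. Muc16, which encodes the mucin that mesothelin binds, was below the array controls in both groups, at 3.44 and 3.40.

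S100a6, or calcyclin, is a small calcium-binding protein found in dividing and migrating cells. Its log2 signal was 7.19, 7.84 and 7.35 in control mice 1, 2 and 3, and 11.67, 10.03 and 10.03 in YAP Tg mice 1, 2 and 3. The gap between the groups was 2.19, and YAP Tg mouse 1 stood 1.64 above the other transgenic mice, which shared a value to all given digits. The level was 18.5 times that of the control mean in mouse 1 and 5.93 times in mice 2 and 3. The means were 7.46 ± 0.34 (SD, n = 3) and 10.58 ± 0.95, the largest change of the 6 markers at 3.12 (SE 0.47), with an adjusted p of 0.00938 in limma. Its 95% interval was 1.98 to 4.25, and 22 of the 19938 genes had a larger change. Leaving out control mouse 1 or 3 ended the call, with changes of 2.98 and 3.06 and adjusted p-values of 0.0565 and 0.0569 in limma, and it was kept with any other array left out.

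Promoter sequences from RefSeq are shown for S100a6 and for Basp1 only. Those of Clu, Msln and Phlda1 were not among the sequences available here. S100a6 had the largest change of the 6 markers, while the groups overlapped for Basp1. They overlapped for Tubb6 too, but its promoter was left out of the search by hand. The shown genes are thus not a pair chosen from all markers, and the motifs below say nothing of the other markers. Each run holds the 250 bases before the start of the gene, 5′ to 3′ on the gene's strand, in build GRCm38.p6. The S100a6 run is chr3:90612644-90612893 on the plus strand and the Basp1 run is chr15:25413765-25414014 on the minus strand.
S100a6: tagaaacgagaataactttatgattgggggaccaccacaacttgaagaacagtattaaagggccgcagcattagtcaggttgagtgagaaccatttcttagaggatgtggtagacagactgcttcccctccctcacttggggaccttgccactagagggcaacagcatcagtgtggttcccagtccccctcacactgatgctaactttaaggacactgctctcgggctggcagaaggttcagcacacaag
Basp1: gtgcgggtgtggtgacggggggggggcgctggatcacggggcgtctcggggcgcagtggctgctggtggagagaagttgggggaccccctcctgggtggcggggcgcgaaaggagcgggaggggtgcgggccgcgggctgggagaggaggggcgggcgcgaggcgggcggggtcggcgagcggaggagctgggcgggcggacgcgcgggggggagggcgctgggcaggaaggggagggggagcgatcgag
Capitals would mark GGAATG, the core bound by TEAD factors, or TGANTCA, the AP-1 site, on either strand, and neither run holds them in this window. Of 32851 promoters cut to the same length, 12.6% held the first motif and 6.75% the second. The runs differ in base composition, with 50.0% G and C for S100a6 and 78.8% for Basp1, against a median of 52.4% over all promoters. A share of 98.3% of promoters had fewer G and C bases than that of Basp1.

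Phlda1 encodes a pleckstrin homology-like domain protein that is induced by growth factors and marks epithelial progenitors of the gut. Its log2 signal was 8.17, 7.99 and 7.50 in control mice 1, 2 and 3, and 10.34, 10.32 and 10.08 in YAP Tg mice 1, 2 and 3. The transgenic mice lay within 0.26 of each other, closer than the controls, which spanned 0.67. The lowest transgenic value was 1.91 above the highest control value. The means were 7.89 ± 0.34 (SD, n = 3) and 10.25 ± 0.15, 2.36 apart on the log2 scale (SE 0.18), with a 95% interval from 1.92 to 2.80 and an adjusted p of 0.00118 in limma. Its adjusted p was the smallest of the 6 markers. It was called with any 1 array left out, with an adjusted p of 0.00200 to 0.0111.

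Basp1 encodes a myristoylated protein that binds calmodulin at the inner face of the plasma membrane and marks growing neurites as well as regenerating crypt cells. Its log2 signal was 7.52, 7.56 and 7.61 in control mice 1, 2 and 3, and 7.97, 7.56 and 7.99 in YAP Tg mice 1, 2 and 3. YAP Tg mice 1 and 3 lay above every control mouse, and YAP Tg mouse 2 had the same value as control mouse 2. The difference was 0.28 (SE 0.13, limma's adjusted p = 0.209), with a 95% interval from -0.04 to 0.59, which leaves out a rise of more than 1.50-fold. Without YAP Tg mouse 2 it was 0.42 and passed (adjusted p = 0.00697), and it passed with arrays weighted by their quality (0.37, adjusted p = 0.0243).

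Tubb6 encodes a beta-tubulin known to increase in regenerating muscle. Its log2 signal was 6.74 on each of the 3 control arrays, and 6.59, 6.78 and 6.70 in YAP Tg mice 1, 2 and 3. The transgenic values lay on both sides of the control value, which was identical to all given digits. Such a match over all control arrays occurred in 2.17% of genes. The difference was -0.05 (SE 0.08, limma's adjusted p = 0.68), and its 95% interval from -0.23 to 0.13 spans folds of 0.85 to 1.09. The probe set thus recorded values within a narrow range in both groups, above the array controls. With a zero spread among controls, its error rests on the transgenic arrays and on the spread shared across genes.

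The markers did not share one order of the transgenic mice, but the departures lay in Basp1 and Tubb6, whose groups overlapped. YAP Tg mouse 1 was highest for S100a6, Clu, Phlda1 and Msln, mouse 2 for Tubb6 and mouse 3 for Basp1. The order from high to low was mouse 1, 2, 3 for Clu, Msln and Phlda1, mouse 1 before a tie of 2 and 3 for S100a6, mouse 3, 1, 2 for Basp1 and mouse 2, 3, 1 for Tubb6. Much of this order is loose. The 3 transgenic mice for Phlda1, mice 2 and 3 for Msln and mice 1 and 3 for Basp1 differed by less than the range among controls. For Tubb6, whose control values were identical, the transgenic mice spanned 0.19, against a median range of 0.30 over all genes. Among the 1495 genes called higher, mouse 1 was highest for 57.6%, mouse 2 for 18.6% and mouse 3 for 23.7%. Over all genes the shares were 29.3%, 30.3% and 36.8%. The order 1, 2, 3 was held by 21.1% of the genes called higher. The median of the presumed array controls also fell in this order, at 5.33, 5.15 and 5.03 in YAP Tg mice 1, 2 and 3. Its part in the order of the markers was not tested. With 3 mice a difference between individual arrays has no test.

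**Figure D2:**
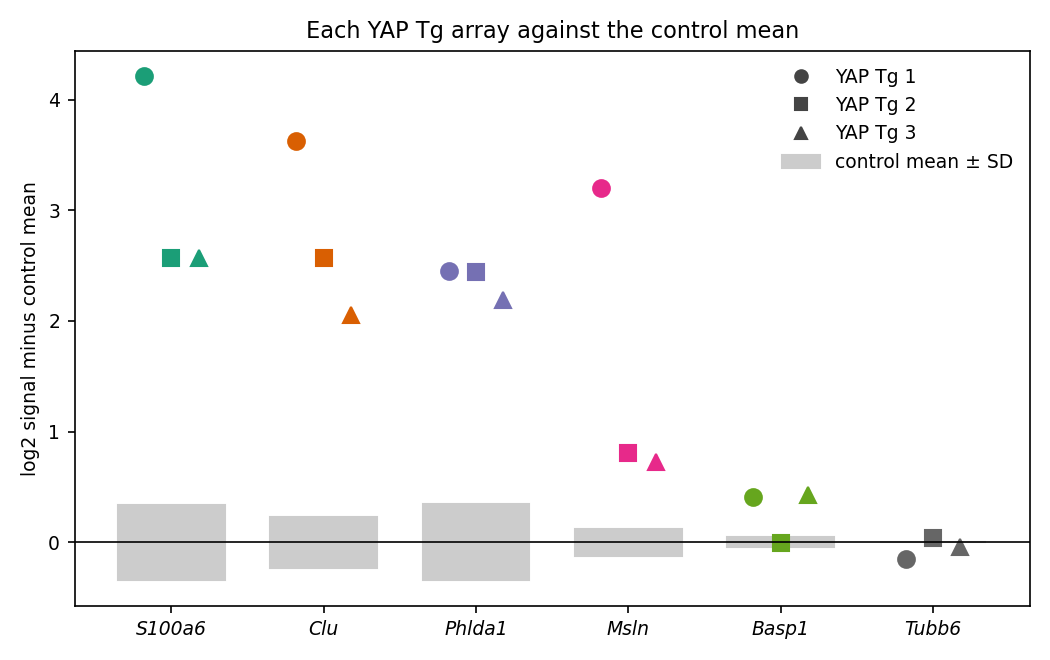
Log2 signal of each YAP Tg array minus the control mean (vertical axis) for the 6 markers, with a symbol per array and a grey band for the control mean ± SD (n = 3). YAP Tg mouse 1 leads for S100a6, Clu and Msln, the mice lie close together for Phlda1, and mouse 2 is level with the controls for Basp1.

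Likeness of profiles was measured as the root mean square difference over the 6 arrays between genes, each set against its own control mean. Clu and S100a6 were the nearest pair among the 3 markers that rose, at 0.35. Clu and Phlda1 stood at 0.57 and Phlda1 and S100a6 at 0.79. Nearest to Clu over all genes were Trim15 at 0.24 and Tmem140 at 0.27. Nearest to S100a6 were Flvcr2, which encodes a membrane transporter, at 0.26 and the clade B serpin Serpinb6b at 0.29. Nearest to Phlda1 were Sorbs2, an adaptor of the actin cytoskeleton, at 0.15 and Lamb3, a laminin chain of the epithelial basement membrane, at 0.20. Genes that lie beside the markers in the genome were measured too. The 12 nearest measured protein-coding genes were taken, 2 on each side of Clu, Phlda1 and S100a6 in the order of GRCm38.p6. Limma called 1 of the 12 higher and 0 lower, where it called 7.5% of all genes higher and 6.7% lower. The count is thus near the share of all genes. The gene called higher was Glipr1, near Phlda1, at 2.62 (SE 0.15, adjusted p = 6.9e-04). The genes flanking S100a6 were S100a5 at 5.83 in control and 5.86 in YAP Tg crypts, S100a4 at 5.30 and 5.36, S100a7a at 6.22 and 7.01 and S100a8 at 4.97 and 5.06, and none of these differences was called.

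Of 17 other genes of fetal-like and regenerating epithelium that were measured, 8 rose and 0 fell by limma (12 and 0 at an unadjusted p below 0.05), with a median log2 change of 1.09. Without control mouse 1 or 2 there were 5 higher, and without YAP Tg mouse 2 there were 9 higher and 1 lower. That last fit called 2802 of all genes higher and 3889 lower, against 1495 and 1336 with all arrays. Of the 17, Anxa3, an annexin of the plasma membrane, was the highest at 3.47, followed by the keratin Krt7 at 2.86 and the alarmin Il33 at 2.84. Sprr1a, a small proline-rich protein of stressed epithelia, rose from 6.76 ± 0.03 (SD, n = 3) to 7.86 ± 0.22. Like Msln, Ly6d, which was named after its values were seen, was highest in YAP Tg mouse 1. It stood at 9.91, 7.90 and 7.23 in YAP Tg mice 1, 2 and 3 against 6.97 ± 0.24 in control, and did not pass (limma's adjusted p = 0.215). Among these 17 genes mouse 1 was highest for 8, mouse 2 for 6 and mouse 3 for 3. Of 22 YAP/TEAD targets, 9 rose and 0 fell (11 and 0 at an unadjusted p below 0.05), with a median of 0.36. They were led by the matricellular protein Ccn1 at 4.49 and the LIM protein Ajuba at 3.94, with the YAP inhibitors Amotl2 at 1.72 and Lats2 at 1.65. Mouse 1 was highest for 17 of these 22.

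**Figure D3:**
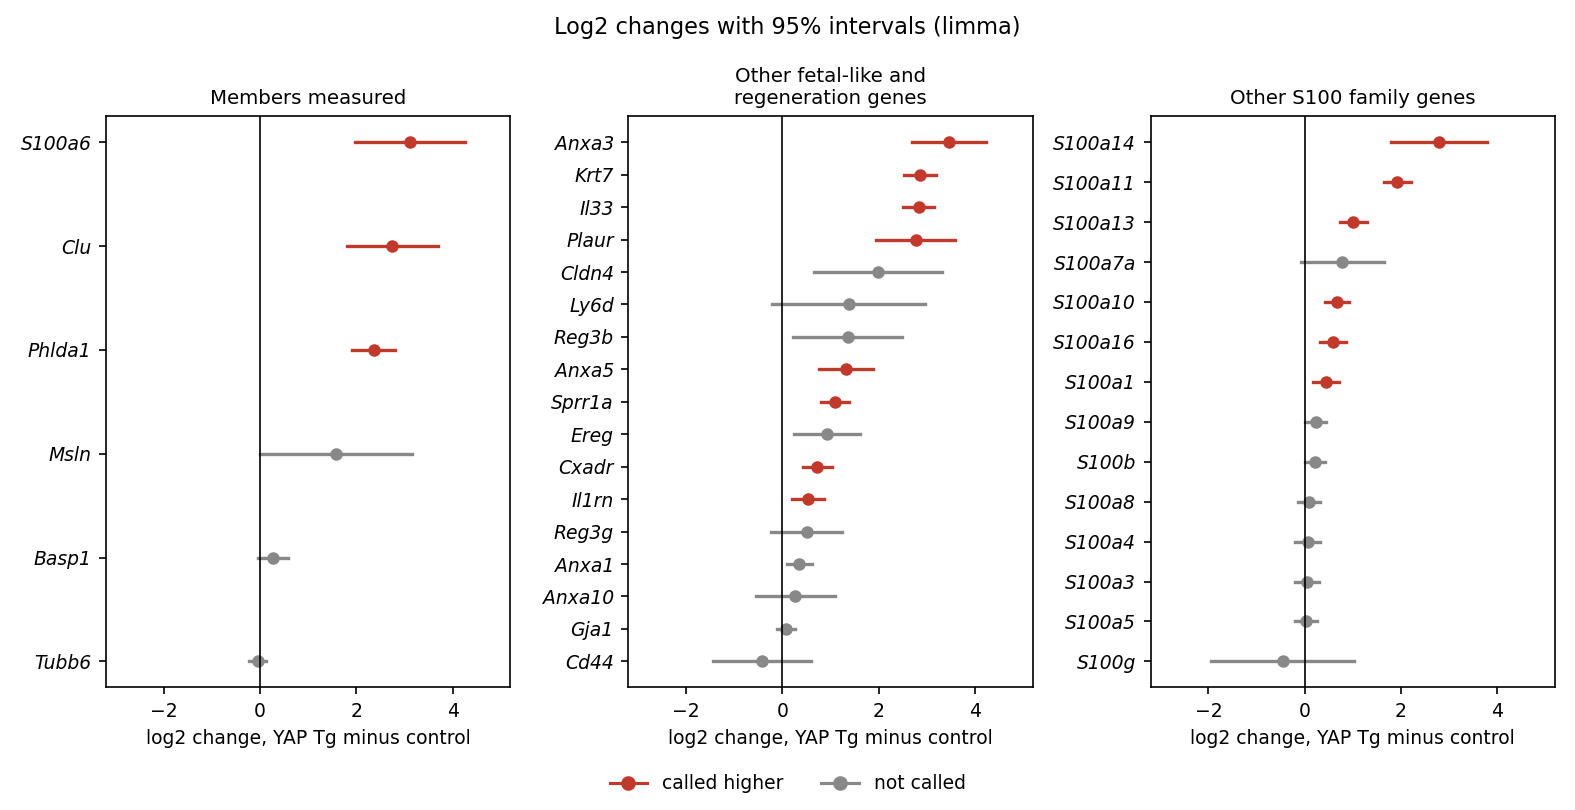
Log2 change from control to YAP Tg crypts (horizontal axis) with limma's 95% interval for the 6 measured markers, 17 other fetal-like and regeneration genes and 14 other S100 genes. Red marks genes called higher at an adjusted p below 0.05 over all genes and grey the rest. S100a6 has the largest change among the markers, and its interval overlaps that of S100a14 in the right panel.

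Relatives of the markers were called in some families and not in others. Of 14 other S100 genes, 6 rose and 0 fell by limma (8 and 0 at an unadjusted p below 0.05), with a median of 0.34. S100a14 changed by 2.80 (SE 0.41), S100a11 by 1.92 (SE 0.12), S100a13 by 1.01 (SE 0.12) and S100a10, a partner of annexin A2, by 0.67 (SE 0.10). Leaving out control mouse 1 gave 2 calls and leaving out control mouse 2 or 3 gave 3, and S100a10 lost its call in each of these settings and S100a14 in the first. Of 10 other tubulins, 0 rose and Tubb2b fell, by 1.36 on the log2 scale (SE 0.17, limma's adjusted p = 0.0056), while 1 other had an unadjusted p below 0.05 in the upward direction. Without YAP Tg mouse 2, 1 tubulin was higher and 3 lower. None of 11 relatives of Basp1, Phlda1 and Spp1 was called by limma, with 2 higher and 2 lower at an unadjusted p below 0.05. The closest to the threshold were Phlda2, a paralog of Phlda1, at 0.96 (adjusted p = 0.0669) and Phldb1 at -0.26 (adjusted p = 0.0538). Phlda2 passed with quantile normalization (1.08, adjusted p = 0.0295 in limma), above the median signal (adjusted p = 0.0379), with array weights (adjusted p = 0.0178) and without YAP Tg mouse 2 (adjusted p = 0.0101). Phldb1 passed with array weights (adjusted p = 0.0342) and without YAP Tg mouse 2 (adjusted p = 0.0394). Without YAP Tg mouse 1, 1 of the 11 was higher, and without YAP Tg mouse 2, 1 was higher and 2 lower.

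Receptors and partners of the secreted and surface markers were mixed. Of 13 genes for clusterin, osteopontin and mesothelin binding, 3 rose and 1 fell, with a median of 0.31. The integrin chains Itgav (1.44, SE 0.14), Itga4 (0.88, SE 0.12) and Itgb1 (0.49, SE 0.10) rose, and Itga5 (-0.60, SE 0.12) fell. The hyaluronan and osteopontin receptor Cd44 differed by -0.42 (SE 0.42, limma's adjusted p = 0.549). Without YAP Tg mouse 2, 6 were higher and 2 lower, and without YAP Tg mouse 1 or 3 or control mouse 1 or 2 none was lower. Itgb1 lost its call without any 1 control or YAP Tg mouse 3, and with the replicate number as a block (adjusted p up to 0.11).

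Markers of other cells moved with the group too. Of 10 T cell and intraepithelial lymphocyte markers, 9 rose and 0 fell, and their summed linear signal was 7391 to 8696 in control and 18546 to 23546 in YAP Tg crypts. In YAP Tg mice 1, 2 and 3 the sum was 23546, 22209 and 18546. Of 12 macrophage markers, 5 rose and 1 fell, and the sums overlapped, at 1472 to 1757 and 1494 to 1799, with Adgre1 below the array controls. Among genes with a mean signal above the median of all genes, 0 macrophage markers were called higher and 0 lower. That filter removes genes of lower signal before the test, and how many macrophage markers it kept is not given here. The counts of 0 therefore do not show that these markers were tested again and lost their calls. Quantile normalization gave 3 higher and 1 lower. Leaving out control mouse 1 or 3 gave 1 macrophage marker called higher, and leaving out control mouse 2 or YAP Tg mouse 1 gave 3. None was called lower without control mouse 1 or 2 or YAP Tg mouse 1 or 3, and 2 were without YAP Tg mouse 2. Of 10 fibroblast markers Vim alone rose, and it was called in none of the settings without a control mouse or YAP Tg mouse 1, while 3 were called without YAP Tg mouse 2. The fibroblast sums were 1341 to 1842 in control and 2041 to 2402 in YAP Tg crypts, with Lum below the array controls. Of 6 smooth muscle, 5 endothelial, 4 B cell and 3 enteric glia markers none was called by limma, and at an unadjusted p below 0.05 the counts higher and lower were 1 and 0, 1 and 0, 1 and 1, and 0 and 0. Without YAP Tg mouse 2, 1 smooth muscle marker was called higher. The sums were 343 to 371 in control and 353 to 411 in YAP Tg crypts for smooth muscle, 245 to 264 and 262 to 274 for endothelium, 354 to 387 and 449 to 718 for B cells, and 135 to 165 and 141 to 156 for glia. Of the 12 epithelial markers, 4 rose and 1 fell by limma. The keratins Krt18 and Krt8 rose by 1.53 and 0.28 on the log2 scale, the adhesion protein Cdh1 by 0.45 and the claudin Cldn7 by 0.42, and the intestinal transcription factor Cdx1 fell by 0.97. Leaving out control mouse 1 or 3 or YAP Tg mouse 3 gave 1 higher, control mouse 2 or YAP Tg mouse 1 gave 2 and YAP Tg mouse 2 gave 6, and without control mouse 3 none was lower. The epithelial sum was 50679 to 54206 in control and 63614 to 64295 in YAP Tg crypts. The part of these cells in the changes of S100a6, Clu and Phlda1 was not tested.

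**Figure D4:**
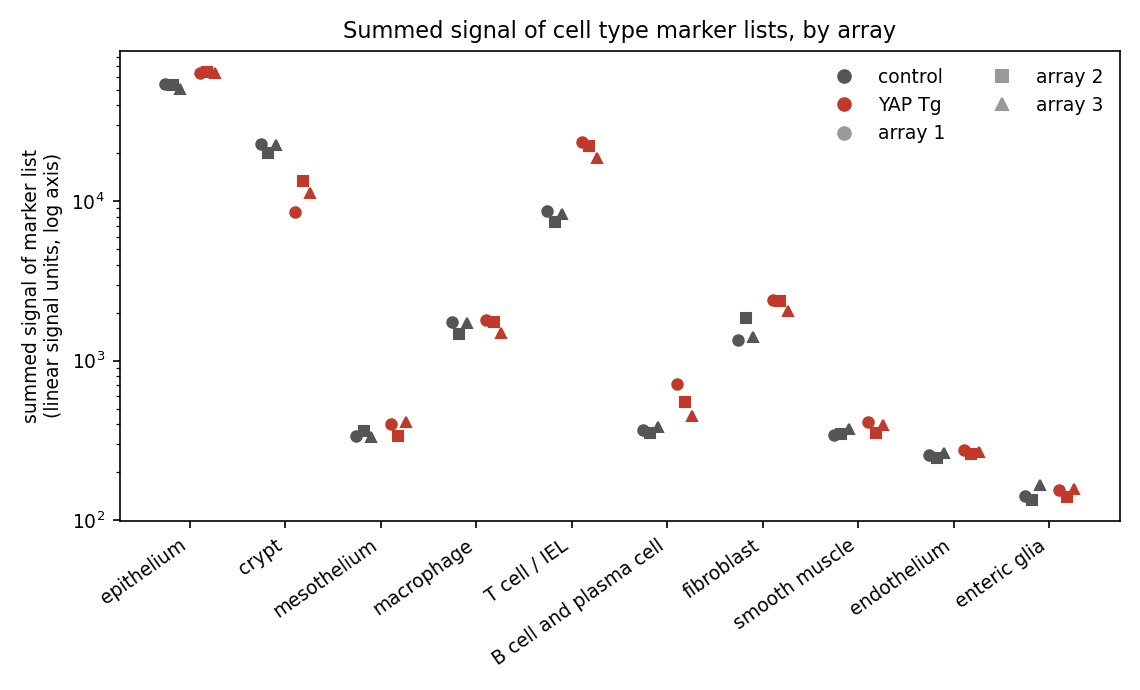
Summed linear signal (vertical log axis) of 10 lists of cell type markers on each control (grey) and YAP Tg (red) array, with the array number as the symbol. The T cell and intraepithelial lymphocyte (IEL) sums are 7391 to 8696 in control and 18546 to 23546 in YAP Tg crypts, and the macrophage and mesothelial sums overlap between the groups.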

How the data were processed

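Crypts were released with EDTA, and their total RNA was isolated on Qiagen columns and biotin-labelled, per the labels' protocols. The authors deposited log2 signals of 35556 probe sets. The submitters' processing notes name Affymetrix Expression Console, version 1.1. That the scale is log2 follows from the range of the values, 1.99 to 14.4. Background correction, normalization and probe summary are steps not given in the sources used here. If arrays were equalized on the bulk of their genes, a shift shared by all genes would be lost. The 6617 probe sets numbered below the first named one were taken to be array controls. Of 21789 with 1 symbol, 21698 matched RefSeq by Entrez identifier. The probe set with the highest mean represented each of 19938 genes.

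Groups came from the sample titles. Whether the samples are separate mice rests on those titles, in which only the controls are called mice. The p-values set each group difference against the spread between these samples, moderated by the spread shared across genes. YAP Tg was compared with control in limma version 3.58.1 under R version 4.3.3, by eBayes moderated two-sided tests without covariates, with Benjamini-Hochberg adjustment over all genes and a threshold of 0.05. The fit was tested on simulated data with independent normal noise of equal spread in both groups. That test does not cover identical values on several arrays, or spreads as unequal as those of Msln. Members and lists were chosen with earlier results of these data known. Named genes are the members, up to 4 genes with the smallest p per list among those called and not named already (or 2 where none was called) and the 2 nearest profiles per called member. Genes flanking the markers, and Ly6d, Cd44, Vim and the cell type markers named, were added after values were seen. Alternatives left out each array, blocked on replicate number, renormalized, filtered low signals, changed the prior, weighted arrays or combined probe sets.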

Additional observations from a re-analysis of the deposited data

How the results depend on the processing

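Clu and Phlda1 kept their direction and call under 15 of 15 alternatives, and S100a6 under 13 of 15. S100a6 lost its call in the fits without control mouse 1 or 3. The counts of markers called were 2 to 4 higher and 0 lower with 1 array left out, and 4 higher with array weights. Msln was called only without YAP Tg mouse 1, and Basp1 only without YAP Tg mouse 2 or with array weights. Tubb6, never called, ranged from -0.097 to 0.00021 with 1 array left out, the latter, without YAP Tg mouse 1, being opposite in sign to its reported value. The background moved more. With 1 array left out, 669 to 2802 genes were higher and 369 to 3889 lower. Array weights gave 2459 and 3481. With the replicate number as a block, 975 genes were higher and 727 lower, and S100a6, Clu and Phlda1 remained called (adjusted p = 0.0381, 0.0351 and 0.00986). The labels do not say whether the numbers pair the samples. The deviations of same-numbered mice correlated at -0.13, 0.01 and 0.10, and those of other pairs at -0.13 to 0.12. With 3 arrays in a group these correlations cannot settle whether samples were paired. The cause of the differences between the alternatives was not tested. Array signal over background limits Muc16 and other genes near the array controls.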

Other observations

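Genes with a profile like that of Msln were looked for after its values were seen. Nearest over the 6 arrays, by the root mean square difference of values set against the control mean, were Xcl1, which encodes a chemokine of lymphocytes, at 0.14, Syt8 at 0.24 and Slfn4 at 0.26. In YAP Tg mice 1, 2 and 3 Xcl1 stood 3.00, 0.64 and 0.95 above its control mean, and Msln 3.20, 0.80 and 0.73. None of the 3 genes passed limma's test (adjusted p = 0.149, 0.148 and 0.214). Of the 3299 genes whose transgenic values all lay above the control values, 1804 were not called, Msln among them.

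The markers that rose did not vary alike among the transgenic mice. A wider range over the 3 transgenic arrays than that of S100a6 (1.64) was found in 1.04% of genes, and wider than that of Clu (1.58) in 1.27%. The range of Phlda1 (0.26) was exceeded by 57.2% of genes, and the median range over all genes was 0.30.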
